A study of Mus musculus with 6 samples.

Results

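Mitochondria fuse, divide and dock onto the endoplasmic reticulum (ER), and the genes described here encode proteins of these steps. MFN1 and MFN2 are GTPases that join outer membranes, OPA1 fuses inner membranes and shapes cristae, and the dynamin DRP1, encoded by Dnm1l, cuts mitochondria at sites to which adaptors recruit it. At contacts between both organelles, calcium leaves the ER through the inositol trisphosphate receptors ITPR1 and ITPR2 and enters the mitochondrion through the pore VDAC1, and the chaperone encoded by Hspa9 bridges receptor and pore. FIS1, an outer membrane protein, and the sorting protein PACS2 also act at these contacts, which in hepatocytes serve calcium signalling and lipid transfer.

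The set comprised 10 named genes (Mfn1, Mfn2, Opa1, Dnm1l, Fis1, Itpr1, Itpr2, Vdac1, Pacs2 and Hspa9) out of 18444 genes listed in at least 1 library, and its members were picked by symbol, under a rule with no threshold on a measured value. All 10 were listed in all 6 libraries, with 341 to 10080 reads, so that none was lost to a filter on low values. Every library came from liver, and the labels give male C57BL/6 mice of 6 to 8 weeks. The methods name the substrain C57BL/6J and give this age for the mice used in the models, so that the age at collection is not stated. In the diet model the groups were a standard chow diet (SD), a high fat diet (HFD) for 16 weeks, labelled NASH, and HFD with JT003, a peptide agonist of the adiponectin receptors, given at 500 μg/kg for 4 weeks. In the carbon tetrachloride (CCl4) model, in which a toxin injures hepatocytes around the central vein, the groups were corn oil, CCl4 for 6 weeks, labelled fibrosis, and CCl4 with JT003 at 500 μg/kg for 3 weeks. The labels name no altered genotype in any group, and the sources used here do not say whether a library holds 1 liver or several pooled livers.

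Each condition was 1 library, so each test compares the reads of 2 libraries and not 2 conditions, and intervals cover counting error only, with no spread between mice. Libraries held 19374236 to 20184557 estimated reads. Hepatocyte markers dominated in all 6 libraries (8 of 8 with reads, summed FPKM 46400 to 56800). Some libraries stood apart in other cell types. The macrophage list (8 of 8 with reads) summed to 37.2 FPKM in corn oil and to 119 to 231 in the other 5, and the dividing cell list (6 of 6) to 88.9 in CCl4 and to 1.05 to 7.03 elsewhere. Stellate and myofibroblast genes (10 of 10) ran from 74.8 in SD to 128 in CCl4. In these libraries Dcn alone was at 56.3 and 46.4 FPKM and Col1a1 at 1.46 and 20.4. Endothelial genes (8 of 8) ran from 29.4 in CCl4 to 94.2 in HFD plus JT003. Cholangiocyte genes (5 or 6 of 6, Cftr at 0 in the diet model) ran from 16.1 in SD to 106 in CCl4 plus JT003. Most of this last sum was Spp1 alone, at 13.8 FPKM in SD and 95.1 in CCl4 plus JT003. T, B and NK cell genes (8 or 9 of 9, Ncr1 at 0 in corn oil and Cd3e in CCl4) summed to 2.82 to 5.96 FPKM, and skeletal muscle and adipocyte genes (1 or 2 of 6, Myh4, Ckm and Lep at 0 throughout) to 0.02 to 0.62. In bulk liver, fewer cells of a type and less RNA per cell cannot be told apart.

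Upstream sequence was available in the RefSeq promoter table (build GRCm38.p6) for 8 of the 10 genes, all but Itpr1 and Hspa9. The 250 bases before the start are shown for the mitofusin pair, whose balance shifted in the comparisons below, for Itpr2, which rose with JT003 on HFD, and for Opa1, which carries the only match among the searched motifs of mitochondrial or stress regulation. Capitals mark a GC box (GGGCGG or its complement) or, in Opa1, the longer run around GCGCATGCG. The Mfn1 sequence lies at chr3:32529232-32529481 on the plus strand, Mfn2 at chr4:147904910-147905159 on the minus strand, Opa1 at chr16:29579084-29579333 on the plus strand and Itpr2 at chr6:146502224-146502473 on the minus strand, each in the flank before exon 1. For Mfn2, the first of 3 starts in the table was taken.
Mfn1: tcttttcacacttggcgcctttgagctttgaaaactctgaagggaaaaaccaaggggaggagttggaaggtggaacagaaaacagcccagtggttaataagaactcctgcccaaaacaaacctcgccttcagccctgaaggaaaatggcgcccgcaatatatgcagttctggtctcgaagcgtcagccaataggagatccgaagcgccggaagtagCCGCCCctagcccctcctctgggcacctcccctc
Mfn2: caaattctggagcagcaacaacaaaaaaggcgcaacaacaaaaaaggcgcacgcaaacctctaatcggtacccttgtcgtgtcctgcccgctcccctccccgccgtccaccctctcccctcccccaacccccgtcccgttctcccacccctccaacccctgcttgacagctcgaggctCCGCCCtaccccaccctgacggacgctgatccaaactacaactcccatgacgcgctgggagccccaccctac
Opa1: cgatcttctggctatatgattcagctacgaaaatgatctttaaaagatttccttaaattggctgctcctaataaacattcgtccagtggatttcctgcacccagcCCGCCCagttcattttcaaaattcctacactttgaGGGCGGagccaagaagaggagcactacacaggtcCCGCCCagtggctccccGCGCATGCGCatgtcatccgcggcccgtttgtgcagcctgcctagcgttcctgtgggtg
Itpr2: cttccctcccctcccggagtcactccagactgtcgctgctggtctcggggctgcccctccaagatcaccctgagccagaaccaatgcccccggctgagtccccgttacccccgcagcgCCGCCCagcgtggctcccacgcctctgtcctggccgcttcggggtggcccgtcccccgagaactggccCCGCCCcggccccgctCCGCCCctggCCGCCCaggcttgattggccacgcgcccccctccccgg

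In the whole window, from 250 bases before to 50 after the start, on either strand, the nuclear respiratory factor 1 (NRF1) site GCGCATGCG was found only in Opa1 among the 8 genes and in 1.75% of all 32851 promoters. Its palindromic core gave 2 overlapping matches, counted on the opposite strands. No match was found in the 8 genes for the unfolded protein response element (CCAAT and CCACG separated by 9 bases, 0.119% of promoters), the CHOP-ATF4 element TGATGNAA (3.97%) or the PPAR element (AGGTCA repeated after 1 base, 0.0396%). The GC box, which was added to the search afterwards, was found in 8 of 8 genes and in 35.7% of all promoters. GC content of the printed stretches was 53.6% for Mfn1, 62.0% for Mfn2, 52.0% for Opa1 and 74.4% for Itpr2, against a median of 52.4% over all promoters, and they held 10, 16, 13 and 22 CpG pairs, against a median of 6. These are matches of letters and not measured binding sites.

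Levels between genes were compared per length. By FPKM, the deposited value per kilobase of transcript, Hspa9 was highest in each library (125 to 162). Vdac1 (77.6 to 112) and Fis1 (48.1 to 91.2) came next, with Vdac1 above Fis1 in 5 libraries and below it in CCl4 plus JT003 (86.1 and 91.2). Mfn2 (18.3 to 44.4 FPKM) lay above Opa1 (8.92 to 16.6), Mfn1 (8.92 to 13.4) and Dnm1l (8.21 to 11.4), whose ranges overlapped. Itpr1 (2.94 to 8.09 FPKM), Pacs2 (3.16 to 3.75) and Itpr2 (2.82 to 4.42) were lowest. The estimated transcript length of each of the 10 genes differed by at most 2.13% between libraries, so that counts and FPKM of a gene differed mainly by library scaling. Below, the level of a gene is given as CPM, its reads per 1000000 after scaling by TMM over all 6 libraries.

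**Figure D1:**
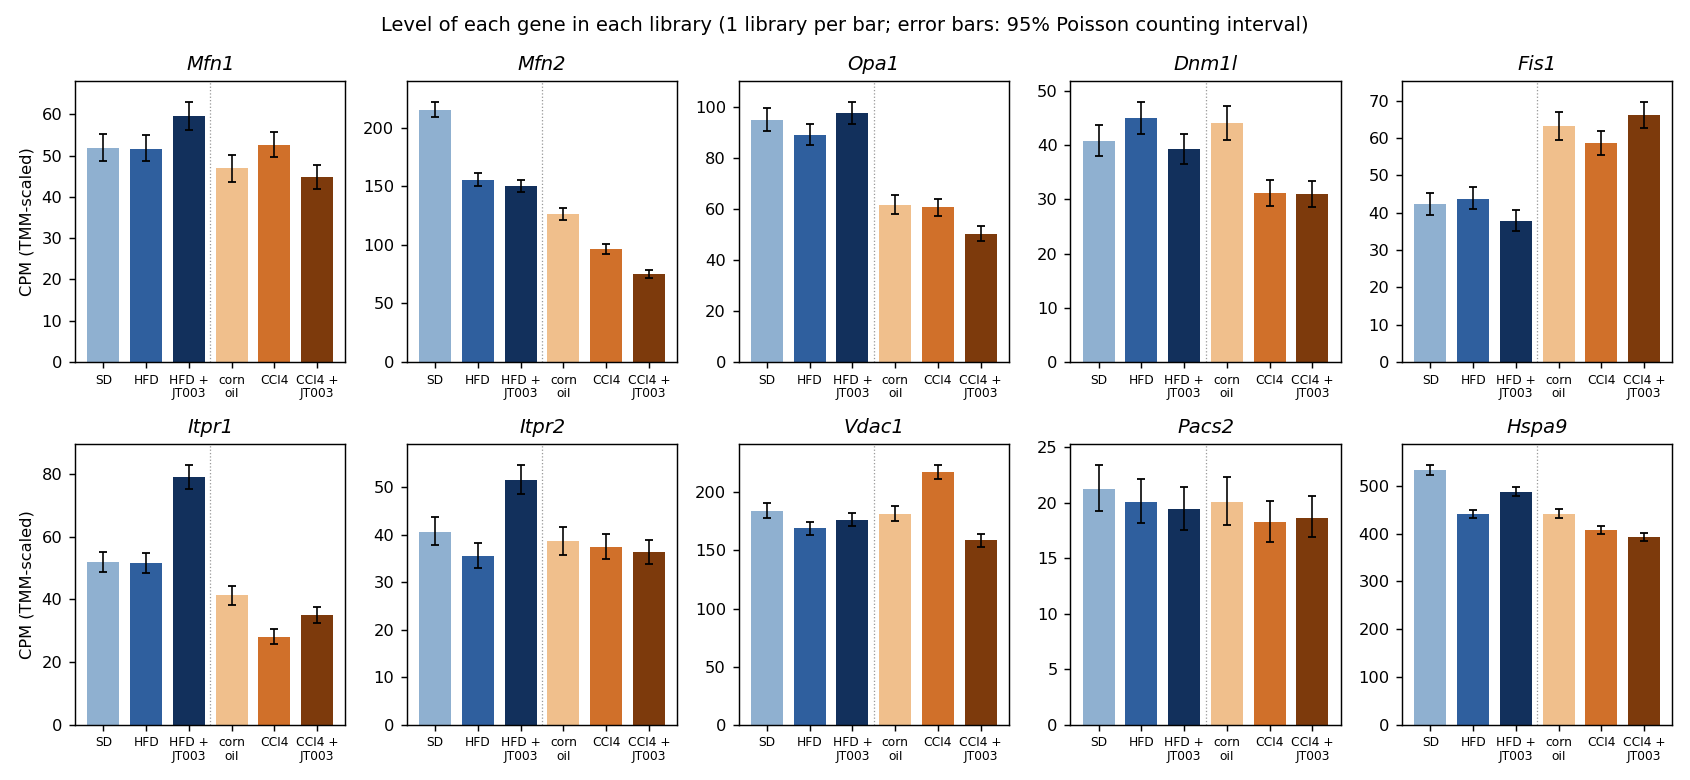
Level of each of the 10 genes in each of the 6 libraries, as CPM after TMM scaling over all 6 libraries. Each bar is 1 library, error bars are 95% Poisson counting intervals, and the dotted line separates the diet model from the CCl4 model. Mfn2 is highest in SD (215) and lowest in CCl4 plus JT003 (74.9), and Itpr1 is highest in HFD plus JT003 (79.1).

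Among the fusion genes, Mfn2 varied most. Its level was 215 CPM (SD), 156 (HFD) and 150 (HFD plus JT003) in the diet model and 126 (corn oil), 96.7 (CCl4) and 74.9 (CCl4 plus JT003) in the other. All 3 diet libraries thus lay above all 3 libraries of the CCl4 model, and within each model the control was highest. Mfn1 was at 51.9, 51.7 and 59.6 CPM in SD, HFD and HFD plus JT003, and at 46.9, 52.6 and 44.8 in corn oil, CCl4 and CCl4 plus JT003. It stayed within a 1.33-fold range, against 2.87-fold for Mfn2. Opa1 was at 95.2, 89.2 and 97.8 in the diet libraries and at 61.7, 60.7 and 50.4 in the CCl4 model, again without overlap between the models.

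The fission genes behaved unlike each other. Dnm1l was at 40.8, 45.0 and 39.3 CPM in SD, HFD and HFD plus JT003. It was at 44.1 in corn oil and lowest in the libraries of CCl4 without and with JT003, at 31.2 and 31.0. Fis1 was at 42.3, 43.7 and 37.8 in the diet libraries and at 63.1, 58.6 and 66.1 in the CCl4 model. Fis1 was the only gene of the 10 for which all 3 libraries of the CCl4 model lay above all 3 diet libraries.

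Of the contact genes, both inositol trisphosphate receptors peaked in HFD plus JT003. Itpr1 was at 51.9, 51.6 and 79.1 CPM in SD, HFD and HFD plus JT003. In the CCl4 model it was at 41.2 with corn oil, 28.1 with CCl4 and 34.9 when JT003 was added. Itpr2 was at 40.7, 35.5 and 51.6 in the diet libraries and at 38.7, 37.5 and 36.4 in the CCl4 model, where the 3 counting intervals overlapped. Vdac1 was at 184, 169 and 176 in the diet libraries and at 181, 218 and 159 in corn oil, CCl4 and CCl4 plus JT003, with the CCl4 library highest of all. Pacs2 stayed between 18.3 and 21.3, a 1.16-fold range, and every pair of its counting intervals overlapped. Hspa9, the mitochondrial HSP70 that also drives protein import, was at 534, 441 and 488 in the diet libraries and at 442, 408 and 393 in the CCl4 model.

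The first comparison asked which of these genes differed after 16 weeks of HFD. A gene is said below to rise or fall when the two-sided exact binomial test gave an adjusted p under 0.001, and fold thresholds of 1.5 and 2 were then applied. Mfn2 fell in HFD against SD, with a log2 ratio of -0.47 (95% interval -0.54 to -0.40, exact test, adjusted p = 2e-41), and Hspa9 fell with -0.28 (-0.32 to -0.24, exact test, adjusted p = 2.2e-38). Mfn1, in contrast, had -0.01 (-0.13 to 0.12). For the other 7 genes the log2 ratio was between -0.20 and 0.14 and none passed the test. Thus 2 of 10 genes passed, where 23.4% of 16973 genes tested and 39.1% of those with at least 100 reads did. No member reached 1.5-fold, which 11.1% of genes did, or 2-fold, which 5.38% did. The median absolute log2 ratio was 0.11 over the 10 genes and 0.26 over all genes with at least 100 reads. Both falls kept their sign in every scaling tried, but FPKM, which has no TMM factor, gave -0.34 for Mfn2 and -0.15 for Hspa9. With total counts Dnm1l passed as well, at 0.26. The stellate list had a median of 0.57 in this contrast, with 4 of 10 higher past 2-fold, and the hepatocyte list of -0.38, with 3 of 8 lower past 1.5-fold, and their part was not tested.

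With JT003 on HFD, the receptors of calcium release were the genes that moved most. Itpr1 rose by a log2 ratio of 0.62 (0.50 to 0.73, exact test, adjusted p = 6.7e-26) and Itpr2 by 0.54 (0.40 to 0.68, exact test, adjusted p = 1.7e-13), while Hspa9 rose by 0.15 (0.10 to 0.19, exact test, adjusted p = 8.1e-11). Itpr1 was the only gene of the 10 past 1.5-fold, where 4.38% of 17090 genes were called, and none reached 2-fold, which 1.63% did. Without a fold threshold 3 of 10 passed, against 14.2% of all genes and 24.1% of those with at least 100 reads. Mfn1 (0.20), Opa1 (0.13), Dnm1l (-0.19) and Fis1 (-0.21) had intervals that excluded 0 but adjusted p of 0.0051 to 0.025 by the exact test. Mfn2, lower in HFD, had a log2 ratio of -0.05 (-0.12 to 0.02) against HFD and -0.52 (-0.59 to -0.45) against SD. Itpr1 was above SD as well, with 0.61 (0.49 to 0.72). The comparisons with HFD and with SD share the HFD plus JT003 library. The macrophage list had a median log2 ratio of 0.55 and the stellate list of -0.83 in the same contrast, and their part in these ratios was not tested.

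In the CCl4 model the library scaling mattered more. The median log2 ratio of CCl4 over corn oil, over genes with at least 100 reads, was 0.01 after TMM scaling and 0.25 with total counts, so the ratios below are relative to TMM scaling. Itpr1 fell by 0.52 on the log2 scale (-0.69 to -0.37, exact test, adjusted p = 5.6e-10), Dnm1l had -0.47 (-0.62 to -0.32, exact test, adjusted p = 9.1e-09), Mfn2 had -0.35 (-0.44 to -0.27, exact test, adjusted p = 2.7e-14) and Hspa9 had -0.09 (-0.13 to -0.04, exact test, adjusted p = 0.00051), all 4 past the test. Vdac1 rose by 0.29 (0.23 to 0.36, exact test, adjusted p = 2.2e-17). Mfn1 was at 0.20 (0.06 to 0.33), with an adjusted p of 0.011 by the exact test, and Opa1, Fis1, Itpr2 and Pacs2 lay between -0.11 and 0.01. The 5 of 10 that passed compare with 26.1% of 17234 genes and 42.4% of those with at least 100 reads, and no member reached 1.5-fold (13.9% of genes) or 2-fold (7.18%). The split into 1 higher and 4 lower became 4 higher and 0 lower with total counts. The calls of Mfn2 (-0.12), Dnm1l (-0.23) and Itpr1 (-0.29) were lost there, Hspa9 turned to 0.15, and Mfn1 (0.43, exact test, adjusted p = 7.2e-10) and Opa1 (0.24, exact test, adjusted p = 0.00025) passed beside Vdac1 (0.53).

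The authors also deposited a CCl4 column that appears to be summed over several CCl4 libraries, since it holds 2.97 times the reads of the CCl4 library, and 24 of 18444 genes lie below their count in that library, by 0.99 reads at most. If the column contains the library, subtracting it leaves a remainder from other libraries, but which were summed is not stated. Against corn oil, this remainder gave a log2 ratio of -0.70 for Mfn2, larger than in the library, but -0.13 for Itpr1 and -0.17 for Dnm1l, neither past the test, -0.03 for Vdac1 and -0.03 for Hspa9. Fis1 passed with -0.24 (exact test, adjusted p = 4.2e-05), where the library gave -0.08. The calls of Itpr1, Dnm1l, Hspa9 and Vdac1 with CCl4 were thus made with the single CCl4 library and not with the remainder, whereas Mfn2 was lower than corn oil in both. Marker sums are given here as reads per 1000000 with TMM scaling within the model, not over all 6 libraries. The remainder was scaled in place of the CCl4 library, so the sums have no common scaling. Endothelial markers summed to 80.7 in the CCl4 library, 136 in the remainder and 144 in corn oil. Dividing cell markers summed to 198, 143 and 7.69. Macrophage markers summed to 195, 383 and 77.9 and stellate markers to 462, 614 and 228. The stellate list was split in the CCl4 library over corn oil. Past 1.5-fold, 4 of 10 genes were higher and 2 lower, Acta2 (-0.89) and Dcn (-0.65). The part of these markers in the ratios of the members was not tested.

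With JT003 on CCl4, Vdac1, Mfn2 and Opa1 fell and Itpr1 rose. Vdac1 fell by 0.45 on the log2 scale (-0.51 to -0.38, exact test, adjusted p = 7.4e-42) and Mfn2 by 0.36 (-0.45 to -0.26, exact test, adjusted p = 8.3e-13). Opa1 had -0.26 (-0.38 to -0.14, exact test, adjusted p = 6.8e-05), and Itpr1 rose by 0.32 (0.16 to 0.48, exact test, adjusted p = 0.00025). Mfn1 at -0.22 and Fis1 at 0.18 had intervals without 0 and adjusted p of 0.0018 and 0.0044 by the exact test. Against 24.0% of 17393 genes, and 40.1% of those with at least 100 reads, 4 of 10 passed. None reached 1.5-fold (10.6% of genes) or 2-fold (4.42%). Set against the remainder of the pooled column, the call of Mfn2 was lost at -0.01 and that of Opa1 at -0.19, Itpr1 turned to -0.08, and Vdac1 stayed lower at -0.13. Dnm1l (-0.30, exact test, adjusted p = 1.7e-05), Fis1 (0.34, exact test, adjusted p = 5e-11) and Hspa9 (-0.11, exact test, adjusted p = 2e-08) passed there. With total counts the call of Opa1 was lost at -0.19 and Fis1 passed at 0.25. Relative to corn oil, CCl4 plus JT003 had -0.71 (-0.81 to -0.62) for Mfn2, -0.47 (-0.62 to -0.32) for Dnm1l and -0.15 (-0.23 to -0.08) for Vdac1. The dividing cell list fell with a median of -2.94 in this contrast (6 of 6 past 2-fold). The stellate list had a median of -0.78, with 5 of 10 lower and 1 higher past 1.5-fold. The endothelial list had a median of 0.48, with 4 of 8 higher past 1.5-fold. The macrophage list had a median of 0.49 but was split, with 3 of 8 higher past 1.5-fold and 1 lower, Cd68 (-0.60). The part of these lists was not tested.

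**Figure D2:**
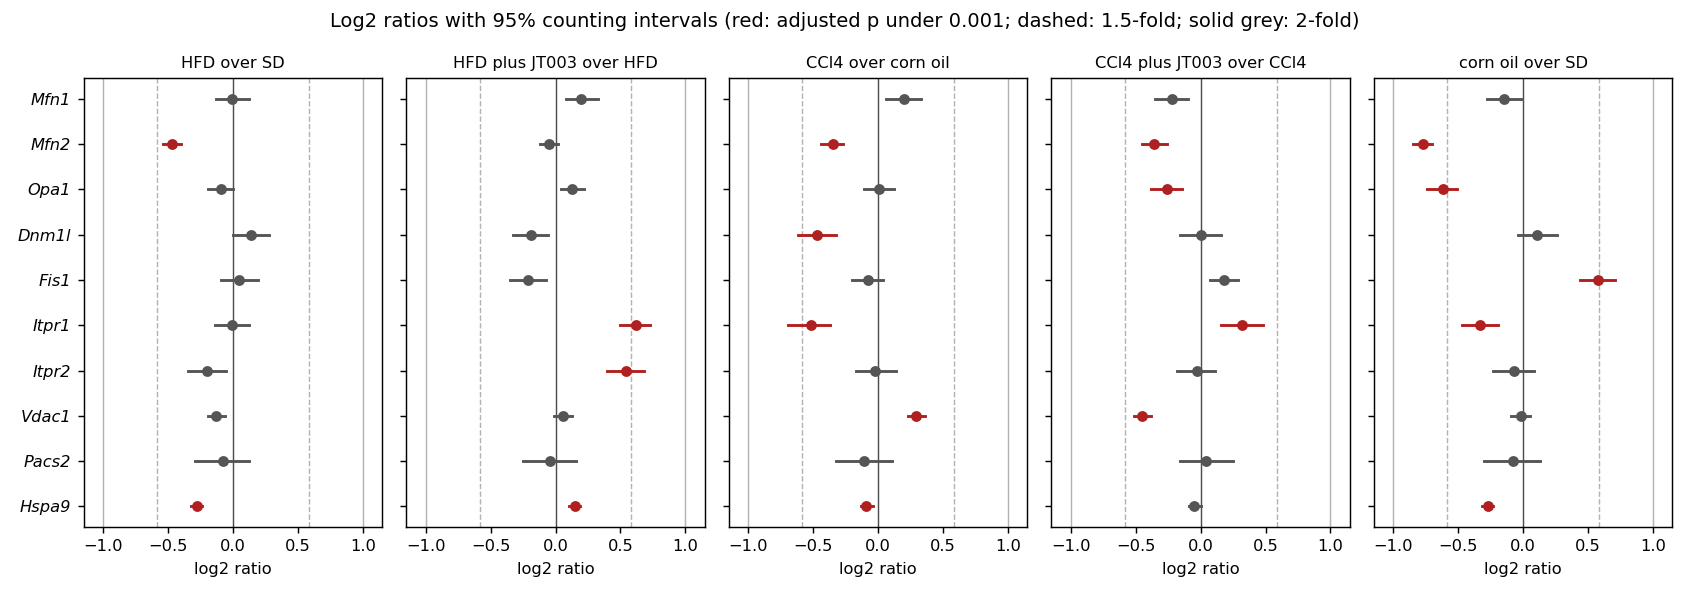
Log2 ratios of the 10 genes (dots) with 95% Clopper-Pearson counting intervals (lines) in the 4 comparisons and between both control libraries. Red marks an adjusted p under 0.001, dashed lines 1.5-fold and solid grey lines 2-fold. Itpr1 with JT003 on HFD (0.62) is the only dot past 1.5-fold in the 4 comparisons, whereas Mfn2 (-0.77) and Opa1 (-0.62) pass it between the controls.

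The SD and corn oil libraries, which received neither HFD nor CCl4, served as a yardstick for differences that neither treatment gives. Here Mfn2 fell in corn oil relative to SD by 0.77 on the log2 scale (-0.85 to -0.70, exact test, adjusted p = 1e-91) and Opa1 by 0.62 (-0.74 to -0.51, exact test, adjusted p = 2e-28), both past 1.5-fold, as were 15.0% of 17018 genes. Fis1 rose by 0.58 (0.44 to 0.71, exact test, adjusted p = 8.8e-17), just inside 1.5-fold. Itpr1 and Hspa9 fell, with -0.33 and -0.27, so that 5 of 10 passed without a fold threshold, against 28.7% of all genes and 49.0% of those with at least 100 reads. These differences between control livers were larger than that of Mfn2, Opa1, Fis1 or Hspa9 in any of the 4 comparisons, save Hspa9 at -0.28 in HFD over SD. All 8 macrophage markers were lower in corn oil, with a median log2 ratio of -2.15. Diet, vehicle, mouse and library cannot be told apart between these 2 libraries.

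Ratios within a library need no scaling and were taken for 4 sets of related genes. In SD, Mfn1 made up 19.4% of the mitofusin reads (95% Clopper-Pearson interval 18.3 to 20.5), and the share was 24.9% (23.6 to 26.3) on HFD and 28.4% (27.1 to 29.8) once JT003 was added. In the CCl4 model the share was 27.1% (25.5 to 28.8) with corn oil, 35.2% (33.6 to 36.9) after CCl4 and 37.4% (35.5 to 39.3) with JT003 besides. Fisher's exact test, adjusted over the 16 tests, gave p = 7.7e-10 for HFD against SD, 0.00058 for JT003 on HFD, 3.9e-11 for CCl4 against corn oil and 0.098 for JT003 on CCl4. The mitofusin balance thus differed from control toward Mfn1 in both models, and it did so in the pooled CCl4 remainder as well, at 39.0% (37.7 to 40.3). The control libraries themselves differed by 7.7 percentage points, more than SD and HFD did. Mfn2 reads outnumbered Mfn1 reads by 4.15 to 1 in SD and by 1.67 to 1 in CCl4 plus JT003.

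Vdac1 took 46.9%, 52.5% and 54.1% of the reads of the 3 Vdac genes in SD, HFD and HFD plus JT003. The CCl4 model gave 46.2% with corn oil, 53.9% after CCl4 and 48.1% with JT003 besides. The difference passed Fisher's exact test for HFD against SD (adjusted p = 1.3e-10), CCl4 against corn oil (8e-20) and CCl4 plus JT003 against CCl4 (3.9e-12). The controls were 0.7 percentage points apart in this share, and the pooled remainder was at 52.6%. In HFD, the partner genes Vdac2 and Vdac3 had log2 ratios of -0.46 and -0.44 to SD, where Vdac1 had -0.13.

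Opa1 made up 70.0%, 66.5% and 71.3% of the reads of Opa1 and Dnm1l in SD, HFD and HFD plus JT003, and 58.3%, 66.1% and 61.9% in corn oil, CCl4 and CCl4 plus JT003. Fisher's exact test passed for JT003 on HFD (adjusted p = 0.00021) and for CCl4 against corn oil (3.1e-06), the latter lost with the pooled remainder, at 60.0%. The controls were 11.7 percentage points apart, more than the libraries of any of the 4 comparisons. Itpr1 made up 56.0%, 59.2% and 60.5% of the reads of Itpr1 and Itpr2 in the diet libraries, and with JT003 on HFD, when both receptors rose, their balance differed by 1.3 percentage points and did not pass (Fisher's exact test, adjusted p = 0.40). In the CCl4 model its share was 51.6%, 42.8% and 49.0%, with adjusted p = 1e-05 for CCl4 against corn oil by Fisher's exact test, and 51.6% in the pooled remainder, equal to corn oil.

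**Figure D3:**
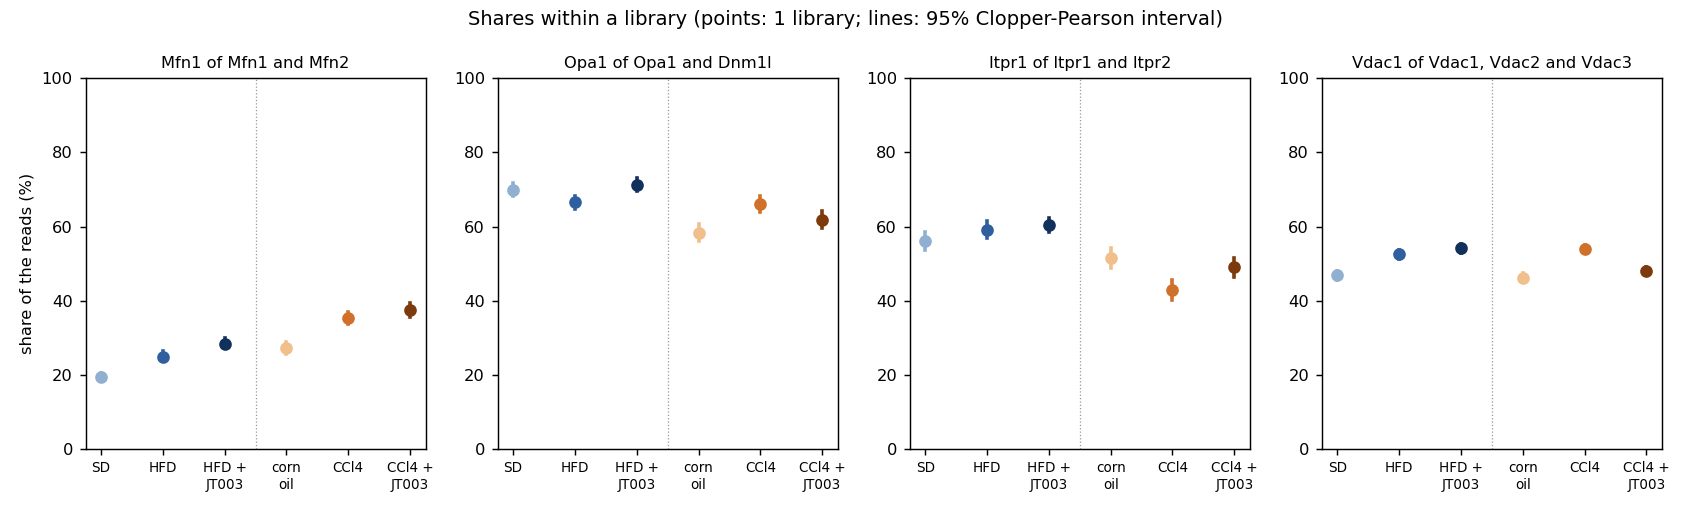
Share of reads, in percent, of Mfn1 among the mitofusins, Opa1 among Opa1 and Dnm1l, Itpr1 among Itpr1 and Itpr2, and Vdac1 among the 3 Vdac genes. Points are libraries and lines 95% Clopper-Pearson intervals. The Mfn1 share is lowest in SD (19.4%) and highest in CCl4 plus JT003 (37.4%). The Vdac1 share is above its control in HFD, HFD plus JT003 and CCl4. In CCl4 plus JT003 it is also above (48.1%), with an interval that overlaps that of corn oil (46.2%).

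Other genes of these pathways were examined in 8 lists with 153 genes in all, the 10 members included. Past 2-fold, 1 rose and 4 fell in HFD, 2 rose with JT003 on HFD, 3 rose and 2 fell with CCl4, and 3 rose and 1 fell with JT003 on CCl4. Over all genes, 5.38%, 1.63%, 7.18% and 4.42% passed 2-fold in that order. At 1.5-fold the counts were 20 of 152 genes tested, 7 of 153, 14 of 152 and 12 of 152, or 13.2%, 4.58%, 9.21% and 7.89%, beside 11.1%, 4.38%, 13.9% and 10.6% of all genes. The median log2 ratio of the 153 genes was -0.13 with HFD, 0.02 with JT003 on HFD, -0.11 with CCl4 and -0.04 with JT003 on CCl4, against medians between -0.01 and 0.00 over all genes. Over genes with at least 100 reads the medians were -0.04, 0.00, 0.01 and -0.04 in that order. Between the controls, in corn oil over SD, list medians ran from -0.23 (contact-site lipid synthesis) to 0.34 (mitochondrial biogenesis). There 19 of 152 genes, or 12.5%, passed 1.5-fold, beside 15.0% of all genes.

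In the list of membrane fusion and cristae genes (20 genes), Samm50, which sorts proteins into the outer membrane, fell by 1.02 on the log2 scale with HFD, from 2516 to 1317 reads, and it was the only gene past 2-fold in any of the 4 comparisons. The medians of this list were -0.17, -0.04, -0.08 and -0.18 in the order of the comparisons. The extremes elsewhere were Slc25a46 at 0.28 and Prelid1 at -0.27 with JT003 on HFD, the protease Spg7 at 0.55 with CCl4, where Mfn2 itself was lowest, and Slc25a46 at 0.29 and the OPA1-cleaving protease Oma1 at -0.78 with JT003 on CCl4.

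Among the fission genes (17 genes, medians -0.09, 0.02, -0.08 and -0.05), only Mtfr2 passed 2-fold, with a log2 ratio of 2.70 in CCl4, from 3 to 36 reads. The actin nucleator Inf2 was at 0.76 and the ligase Mul1 at -0.51 with HFD, Mtfr1 at 0.33 with JT003 on HFD, where Fis1 was lowest, and the receptor of DRP1 encoded by Mief1 at 0.48 and the dynamin Dnm2 at -0.54 with JT003 on CCl4.

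The tethers (19 genes, medians -0.04, 0.09, -0.07 and -0.07) held the gene with the highest log2 ratio of all 153 with JT003 on CCl4 and, among those with at least 100 reads, on HFD. Osbpl5, a lipid transfer protein of the contacts, had 76 reads in HFD and 213 in HFD plus JT003 (log2 ratio 1.44), and 33 in CCl4 and 120 in CCl4 plus JT003 (1.79). Vps13a, a bridge-like lipid transporter, went from 195 to 410 reads with JT003 on HFD (1.04) and from 225 to 395 with JT003 on CCl4 (0.80), the latter under 2-fold. In SD and corn oil, Osbpl5 had 36 and 42 reads and Vps13a 160 and 194. In the remaining comparisons, Osbpl8 was at 0.68 with HFD, and Osbpl8 at 0.50 and Pdzd8 at -0.40 with CCl4.

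In the calcium transfer list (23 genes, medians -0.09, 0.00, -0.09 and -0.05), Itpr3 rose by 1.20 with CCl4, from 30 to 87 reads, and no other gene passed 2-fold. Canx, an ER chaperone, was at 0.63 with HFD. Calr, an ER calcium buffer, was at -0.63 with JT003 on HFD, where Itpr1 was highest, as it was with JT003 on CCl4. The contact-site lipid synthesis list (15 genes) had medians of -0.26, 0.15, 0.29 and -0.02. It held Acsl1, which activates fatty acids and fell by 1.33 with HFD, from 88579 to 37630 reads. It also held Soat1, which esterifies cholesterol and rose by 1.77 with CCl4, from 23 to 101 reads. The controls differed in both genes. In corn oil over SD, Acsl1 was at -1.02, with 39257 reads in corn oil, and Soat1 at -1.52, with 77 reads in SD. With JT003 on HFD, Crls1 was at 0.49 and Pgs1 at -0.19, and with JT003 on CCl4, Dgat2 was at 0.26 and Soat1 at -0.45. Of these ratios, those of Pgs1 and Soat1 did not pass the test.

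The mitophagy list (18 genes) had medians of -0.26, 0.00, -0.41 and -0.05. Bnip3, a mitophagy receptor, fell by 1.11 with CCl4, from 5317 to 3008 reads, and had 5719 reads in CCl4 plus JT003. Park2, the ubiquitin ligase Parkin, rose by 1.39 with HFD and by 1.24 with JT003 on CCl4, at 20 to 86 reads in all. Its ratio between the controls, corn oil over SD, was larger than either, at 1.54, from 20 to 56 reads. With JT003 on HFD, Bnip3 was at 0.69 and Gabarapl1 at -0.33. In the biogenesis list (18 genes, medians -0.09, 0.02, -0.25 and 0.24), the coactivator gene Ppargc1b fell by 1.57 with CCl4, from 183 to 74 reads. The mitochondrial polymerase subunit gene Polg2 rose by 1.05 with JT003 on CCl4 and had 0.74 with JT003 on HFD. In corn oil over SD, Polg2 was at 0.74 as well, and the median of this list was 0.34. Ppargc1a was at 0.40 with HFD, -0.51 with JT003 on HFD and 0.42 with JT003 on CCl4, and Nrf1 at -0.54 with HFD, none past the test.

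Hspa9 belongs with the import machinery, and the list of chaperones, proteases and import genes (24 genes) had medians of -0.28, -0.05, -0.22 and -0.03. With HFD, Clpx, the unfoldase of the matrix protease, fell by 1.02 and Atf5, a transcription factor of the mitochondrial unfolded protein response, by 1.82, from 27297 to 8224 reads. Hspa9, at -0.28, lay at the median of its list. Clpx was at 0.55 and Clpp at -0.74 with CCl4, and Clpx fell by 1.89 with JT003 on CCl4, from 5245 to 1427 reads. With JT003 on HFD, Grpel2 was at 0.35 and Atf5 at -0.88.

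Mfn2 and Itpr1 were the members whose level spanned at least 1 log2 unit over the 6 libraries, with ranges of 1.52 and 1.49. The genes most like Mfn2, by Pearson correlation of log2 levels over the 6 libraries among 4969 genes, were Farp2 (r = 0.995), Arel1 (0.995) and Gosr1 (0.994). Arel1, for example, was at 95.9, 68.7 and 65.3 CPM in the diet libraries and at 56.9, 38.5 and 32.7 in the CCl4 model, in the order used above. Itpr1 was most like Plcg1 (0.995), Stag2 (0.993) and Asxl2 (0.992) among 5110 genes. Plcg1, which encodes a phospholipase that makes the ligand of the receptors, was at 30.8, 32.8 and 47.0 in the diet libraries and at 23.5, 16.8 and 21.2 in those of the CCl4 model. The libraries share 2 models and 1 scaling, so these correlations describe 6 points, and the genes were picked as the nearest of all compared.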

How the data were processed

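Liver RNA was sequenced on a BGISEQ-500 instrument in 6 libraries, 1 per condition. The authors deposited an expected count (estimated reads, not normalized), an FPKM value and a transcript length in bases per gene and library, and the submitters' processing notes name HISAT, Bowtie2, RSEM and the mm9 build, without versions. Counts were rounded (69.9% to 70.9% were whole, within 0.001), with totals of 19374236 to 20184557, and scaled by TMM over the 3 libraries of a model (edgeR 4.0.16, R 4.3.3), or over all 6 for levels and for corn oil against SD. Genes with 1 read or more entered an exact binomial test, two-sided and conditional on the summed reads (scipy 1.17.1), p-values were adjusted over all of them after Benjamini and Hochberg, and log2 ratios used a prior count of 2. Intervals and tests cover counting error between libraries, not mice. The procedure was tested on simulated Poisson counts, with library totals in place of TMM scaling and no variation between mice. That simulation follows the model of the exact test, so it cannot show how the calls hold against variation between mice. Pattern-like genes needed a mean of 100 reads and at least 50% of the member's range, and the 3 nearest are named. Of list genes, those past 2-fold are named and otherwise the extremes in each direction among genes with at least 100 reads, except for some that are not reported here, and 1 list gene had no reads in some comparisons. Members, lists and tests were chosen with earlier results of these data known, and the count without a fold threshold, the GC box and the remainder of the pooled CCl4 column were added after the data were seen. In the authors' comparison tables, 7 other expression columns and the fold changes and p-values were not used. Promoters came from RefSeq tables of GRCm38.p6, since no mm9 sequence was used here.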

Additional observations from a re-analysis of the deposited data

Results flagged for a closer look

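For 3 members the log2 ratio with JT003 had opposite signs in the 2 models, with counting intervals on either side of 0. Mfn1 was at 0.20 on HFD and -0.22 on CCl4. Opa1 was at 0.13 on HFD and -0.26 on CCl4. Fis1, in the opposite order, was at -0.21 on HFD and 0.18 on CCl4. Vdac1 differed in the same way between the disease models, at -0.13 in HFD over SD and 0.29 in CCl4 over corn oil. With the remainder of the pooled CCl4 column, Vdac1 was at -0.03 over corn oil and Mfn1 at -0.11 with JT003, neither past the test, and with total counts Vdac1 in HFD over SD had an adjusted p of 1 by the exact test. The difference itself was not tested for any of these genes, and with 1 library per condition, mouse and model cannot be told apart.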

How the results depend on the processing

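No paired analysis was possible because each condition is 1 library, and no library could be left out of a comparison for the same reason. The number of members past 2-fold was 0 in each of the 4 comparisons under every alternative run. At 1.5-fold the count of 0 members became 1 for CCl4 over corn oil with the pooled remainder (Mfn2), and the count of 1 with JT003 on HFD became 0 with log2(FPKM + 1) and with edgeR's exact test under a preset variation between mice (coefficient 0.2 or 0.4). Without a fold threshold the members called were 2, 3, 5 and 4 in the order of the comparisons. The pathway genes called were 64 of 152, 35 of 153, 77 of 152 and 63 of 152. Shares over all genes were 23.4%, 14.2%, 26.1% and 24.0%, and over those with at least 100 reads 39.1%, 24.1%, 42.4% and 40.1%. With a coefficient of 0.2, edgeR's exact test called 0 pathway genes at either fold in the first 3 comparisons and 1 in CCl4 plus JT003 over CCl4, and with 0.4 it called 0 in all. With log2(FPKM + 1), 3, 0, 0 and 1 pathway genes passed 2-fold, since low genes shrink toward 0, and with log2(FPKM + 0.1), 12 and 33 passed 1.5-fold for JT003 on HFD and for CCl4. For CCl4 over corn oil, 2-fold calls in the pathway lists were 9 with the pooled column, 10 with its remainder and 3 among genes with at least 100 reads, and 1.5-fold calls were 30 with total counts and 32 with the remainder.

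Among ratios past the test in the main or the recomputed run, signs turned for Vdac1 (-0.03, CCl4 over corn oil) and Itpr1 (-0.08, JT003 on CCl4) with the remainder. Hspa9 in CCl4 over corn oil also turned, to 0.15 with total counts, log2(FPKM + 1) or log2(FPKM + 0.1). Of 280 recomputed member ratios, 223 stayed on the same side of the threshold or, with FPKM, within their interval. These include ratios past the test in neither run that changed sign. An example is Fis1 in CCl4 over corn oil, at -0.08 in the main run and 0.16 with total counts. The difference in the Opa1 share between CCl4 and corn oil was 3.6 percentage points with the pooled column and 1.7 with the remainder, and that of Itpr1 -2.7 and 0, none past the test. The cause of these changes was not tested, apart from the shrinkage named. Members had 341 to 10080 reads each, and no spread between mice could be estimated.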
